A study of Mus musculus with 8 samples.

Results

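The Hox cluster genes are the 39 protein-coding mouse genes whose symbols begin with Hoxa, Hoxb, Hoxc or Hoxd followed by a number. They were taken by symbol from the 21887 protein-coding genes of a RefSeq table for GRCm38.p6, the assembly with mm10 coordinates. The HoxA cluster holds 11 of them, HoxB 10, HoxC 9 and HoxD 9. A gene was scored for a gene-end peak, that is a peak of accessible chromatin that comes within 1 kb of one of the gene's annotated ends. Each cluster was also scored as a window from its first to its last Hox gene end with 20 kb added on both sides. Of 180156 peaks in 8 lists, 67 lay in the 4 windows.

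Hox genes encode homeodomain transcription factors that give cells their position along the head-to-tail axis of the embryo. They stand in clusters in the order in which they are used along that axis, and genes at the same place in different clusters, called a paralogue group, are related copies. In cells that do not use them the clusters are a classical target of Polycomb repression, in which histone H3 lysine 27 is methylated, whereas Trithorax proteins keep them active. Microglia, the resident macrophages of the brain, descend from the yolk sac, and the forebrain in which the hippocampus lies is formed without Hox expression in its neural cells. Hoxb8 is an exception of interest in this tissue, because its loss causes compulsive grooming in mice and because it marks the lineage of a subset of microglia.

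Accessibility was measured by ATAC-seq, in which a transposase cuts open DNA and leaves adapters for sequencing, in hippocampal microglia of mice aged 3 weeks. There were 4 libraries of control mice (Ctrl) and 4 of FGR mice, for which the series title speaks of growth restriction in the uterus. All 8 libraries carried the genotype Tmem119-tdTomato+/-, 1 reporter allele that marks cells using the microglial gene Tmem119 with a red fluorescent protein. The comparison asks whether growth restriction leaves a difference in accessible chromatin. The labels do not say how growth was restricted, how the cells were isolated, what sex the mice were or whether libraries came from separate or pooled animals, so that p-values measure only the spread between these libraries. In bulk material, few cells with an open site and many cells with a weakly open one cannot be told apart.

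The Hox promoters that overlapped a peak are shown first, with Hoxa9 for contrast, whose 300-base promoter window holds 4 CpG, the lowest count among Hox promoters and shared with Hoxd4 and 1 of the Hoxd11 promoters, because CpG-rich promoters are commonly open whether or not a gene is much used. Each run is the 250 bases before the annotated start, read 5′ to 3′ on the gene's strand from the RefSeq promoter table for GRCm38.p6, with every CpG in capitals. Hoxd1 (chr2:74762730-74762979, plus strand) and Hoxd13 (chr2:74667975-74668224, plus strand) come from HoxD, Hoxb4 (chr11:96318017-96318266, plus strand) from HoxB, and Hoxa9 (chr6:52227371-52227620, minus strand) from HoxA.
Hoxd1: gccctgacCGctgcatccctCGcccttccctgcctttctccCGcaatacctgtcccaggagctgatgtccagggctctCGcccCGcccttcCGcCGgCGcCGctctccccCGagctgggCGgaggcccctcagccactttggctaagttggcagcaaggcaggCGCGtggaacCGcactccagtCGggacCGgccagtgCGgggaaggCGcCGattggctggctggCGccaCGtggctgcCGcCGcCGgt
Hoxd13: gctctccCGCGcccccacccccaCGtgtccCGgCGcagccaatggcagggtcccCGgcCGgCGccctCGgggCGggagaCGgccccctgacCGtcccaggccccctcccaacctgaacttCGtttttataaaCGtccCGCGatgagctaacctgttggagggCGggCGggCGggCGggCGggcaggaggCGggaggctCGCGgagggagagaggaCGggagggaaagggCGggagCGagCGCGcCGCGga
Hoxb4: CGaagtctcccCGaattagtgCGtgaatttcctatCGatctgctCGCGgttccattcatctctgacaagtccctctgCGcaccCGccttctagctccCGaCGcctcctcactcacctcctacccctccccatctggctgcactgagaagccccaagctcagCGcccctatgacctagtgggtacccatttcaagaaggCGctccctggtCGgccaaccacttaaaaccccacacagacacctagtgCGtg
Hoxa9: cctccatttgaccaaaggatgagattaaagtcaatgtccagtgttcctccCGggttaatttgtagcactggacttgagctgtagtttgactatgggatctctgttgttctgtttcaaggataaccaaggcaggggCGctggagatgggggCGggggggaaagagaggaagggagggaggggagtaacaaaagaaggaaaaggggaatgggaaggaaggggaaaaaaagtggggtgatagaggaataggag
The 4 runs hold 24, 31, 14 and 3 CpG dinucleotides in that order. A promoter peak was found for Hoxd1 in FGR 1 and FGR 3, for Hoxd13 in 1 FGR library, and for Hoxb4 in 1 Ctrl and 1 FGR library. The Hoxa9 promoter overlapped no peak in any of the 8 lists.

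The lists held 16111, 10862, 22705 and 24195 peaks in Ctrl 1 to 4 and 27209, 23327, 29501 and 26246 in FGR 1 to 4, and the background coverage recovered from them lay between 3.01 and 6.05 extended reads per base. Ctrl 1 and Ctrl 2 stood apart, with shorter lists, a median peak width of 566 and 522 bp against 353 to 386 bp in the others, and summits displaced by a median of 138 to 139 bp against the other 6 libraries. FGR 1 and FGR 3 placed 9.01% of shared summits at the identical base and FGR 2 and FGR 4 placed 7.48% there, against 1.77% to 2.13% in the 13 other pairs among the 6 libraries. Of shared summits, 1.19% in Ctrl 1 and Ctrl 3 and 0.91% in Ctrl 2 and Ctrl 4 lay 200 bp apart. The other pairs of Ctrl 1 or Ctrl 2 with these 6 libraries had 0.394% to 0.749% there. The labels do not say how many independent samples the 4 libraries of either group stand for. Of 8 microglia markers, 5 had a gene-end peak in all 8 libraries, among them Tmem119, Sall1 and Cx3cr1, and P2ry12 had one in 1 FGR library. No library had such a peak at any of 6 neuronal, 5 blood-cell or 3 bone-marrow macrophage markers, and Aldh1l1 of 4 astrocyte markers had one in 1 library. Among 4 oligodendrocyte markers, Mbp had one in 2 Ctrl and 2 FGR libraries. Among 4 endothelial and mural markers, Flt1 had one in 1 Ctrl and 4 FGR libraries, while Cldn5, Pecam1 and Pdgfrb had none.

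Few Hox genes had a peak at a gene end in any library. The number of the 39 genes with one was 2, 1, 3 and 6 in Ctrl 1 to 4 and 6, 6, 7 and 4 in FGR 1 to 4. Ctrl 4 reached the level of the FGR libraries and exceeded FGR 4, so that the groups overlapped. These counts correspond to 7.69% ± 5.54 of Hox genes in Ctrl and 14.7% ± 3.23 in FGR (SD, n = 4 libraries each). Over all protein-coding genes the same measure was 42.7% ± 5.92 and 46.7% ± 1.65. The difference of 7.05 percentage points for Hox genes was 3.21 without Ctrl 1 and 2 and 2.56 in replicates 3 and 4 only. Over all genes the difference of 4.01 was -0.38 and 0.17 in these settings. Flt1 and the length of the lists moved with the groups as well, and their part in the Hox counts was not tested.

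Across libraries the calls were scattered. Of the 39 genes, 19 (48.7%) had a gene-end peak in at least 1 library, against 57.8% of all protein-coding genes. In at least 4 libraries the count was 2 of 39 (5.13%), against 45.6%, and in all 8 libraries it was 0, against 31.9%. The 2 genes were Hoxa4 and Hoxb4, each in 6 libraries. A further 11 genes were called in 1 library and 6 in 2, so that 11 of the 19 genes with a call had it in a single list. Of 312 possible calls of gene and library, 35 were made (11.2%, against 44.7% over all genes), and Hoxa4 and Hoxb4 made up 12 of the 35. Paralogue group 4 held 13 of its 32 possible calls (40.6%), group 8 held 5 of 24, and groups 2, 7 and 11 held 0. The 20 genes without a call in any library were Hoxa2, Hoxa7, Hoxa9, Hoxa11 and Hoxa13 in HoxA, Hoxb1, Hoxb2, Hoxb3, Hoxb5, Hoxb7, Hoxb9 and Hoxb13 in HoxB, Hoxc4, Hoxc5, Hoxc9, Hoxc11 and Hoxc12 in HoxC, and Hoxd3, Hoxd10 and Hoxd11 in HoxD.

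**Figure D1:**
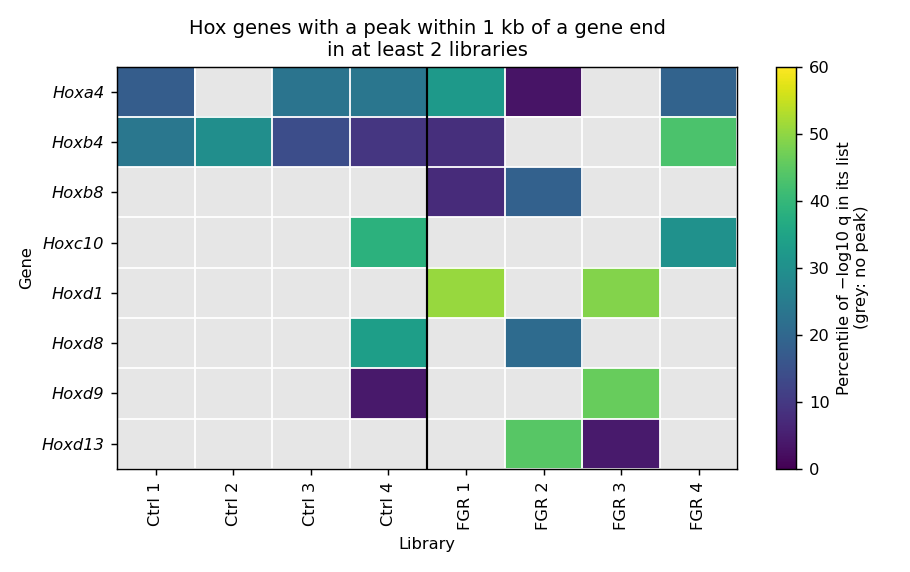
Gene-end peaks of the Hox genes called in at least 2 libraries (8 rows, by cluster and paralogue group) in 4 Ctrl and 4 FGR libraries (columns), where the colour gives the strongest peak's percentile of −log10 q within its list and grey means no peak. Hoxa4 and Hoxb4 are each filled in 6 libraries and the other 6 genes in 2.

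Hoxb4, a regulator of neck vertebra identity known for expanding blood stem cells when overexpressed, was called in all 4 Ctrl libraries and in FGR 1 and FGR 4. Its gene spans chr11:96318267-96321638 on the plus strand, and the merged region of its peaks was chr11:96318197-96319096. Not all of these peaks overlapped each other. The Ctrl 4 peak ended at 96318501, before the other Ctrl peaks, which began at 96318581 or later, and FGR peaks joined them. The summits lay 567, 393, 618 and 120 bp after the annotated start in Ctrl 1 to 4, 322 and 664 bp after it in FGR 1, which had 2 peaks, and 342 bp after it in FGR 4. They therefore lay downstream of the start in every library that had one, beyond the promoter run shown above. The fold of summit over local background, the authors' own value, was 3.78, 4.06, 3.57 and 2.89 in Ctrl 1 to 4, 2.91 and 2.95 in FGR 1 and 3.82 in FGR 4. In percentiles of −log10 q within each list, the peaks ranked at 23.9, 29.7, 14.2 and 9.53 in Ctrl, at 7.41 and 8.10 in FGR 1 and at 42.9 in FGR 4. All lay in the weaker part of their lists. Fisher's exact test on the libraries with and without a peak, 4 Ctrl against 2 FGR, gave an unadjusted two-sided p = 0.429 and an adjusted p = 1.

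Hoxa4, the HoxA paralogue of Hoxb4 and likewise a neck vertebra gene, was called in Ctrl 1, 3 and 4 and in FGR 1, 2 and 4. The gene spans chr6:52189682-52191703. In 5 of these libraries the peaks formed the region chr6:52191835-52192314, which lies just outside the higher-coordinate end of Hoxa4 and within the longer span of Hoxa3. Its summits stood 434, 261 and 369 bp beyond that end in Ctrl 1, 3 and 4 and 327 and 421 bp beyond it in FGR 2 and 4. In FGR 1 the peak lay apart, with its summit 552 bp inside the gene. The peaks ranked at the 17.6, 23.1 and 23.5 percentiles of their lists in the Ctrl libraries and at the 32.1, 3.05 and 19.1 percentiles in FGR 1, 2 and 4. Both groups had 3 libraries with a peak and 1 without.

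Of the other 17 genes with a call, 6 were seen in 2 libraries. Hoxd1, which shapes the circuits of pain-sensing neurons in mice, was called in FGR 1 and FGR 3, the pair with shared summits, at the 50.6 and 48.9 percentiles. Hoxd13, which patterns digits, was called in FGR 2 and FGR 3 at the 44.3 and 4.44 percentiles. Hoxb8 was called in FGR 1 and FGR 2 at the 7.29 and 18.5 percentiles, by peaks at opposite ends of the gene that did not overlap. Hoxc10, a lumbar gene, was called in Ctrl 4 and FGR 4, again by separate peaks, and so was Hoxd8, in Ctrl 4 and FGR 2. Hoxd9 was called in Ctrl 4 and FGR 3 by peaks of 1 region. These 6 genes therefore split into 3 with calls in FGR libraries alone and 3 with 1 call in each group. The same split over all genes called in 2 libraries was not taken.

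Single calls made up the remaining 11 genes. In HoxA they included Hoxa3, which is needed for the thymus and parathyroid, in FGR 3, Hoxa5, needed for the airways, and Hoxa6 in FGR 1 through 1 shared peak, and Hoxa10, a uterine and lumbar gene, in Ctrl 4. In HoxB it was Hoxb6 in FGR 3. In HoxC they were Hoxc6 and Hoxc8, both of which specify spinal motor neurons, in FGR 3, and Hoxc13, a gene of hair and nails, in FGR 4. In HoxD they were Hoxd4 in FGR 2 and Hoxd12 in Ctrl 3. FGR libraries thus supplied 9 of the 11, and FGR 3 alone supplied 4. The same shares over all genes called in 1 library were not taken. Among merged peak regions called in 1 library over all lists, FGR 1 to 4 supplied 19.6%, 11.2%, 23.6% and 16.0%.

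No Hox gene differed by at least 3 libraries between the groups. Over all genes, 265 (1.21%) had a gene-end peak in at least 3 more FGR libraries and 38 (0.174%) in at least 3 more Ctrl libraries. Fisher's exact test gave no gene an adjusted p under 1, Hox genes included, and with 4 libraries against 4 its smallest unadjusted p is 0.0286, reached by 42 genes (0.192%) of which none was a Hox gene. By presence alone, 12 Hox genes (30.8%, against 6.03% of all genes) had calls in FGR libraries only, 2 (5.13%, against 2.77%) in Ctrl libraries only, and 5 (12.8%, against 49.0%) in both. Those 12 genes had 1 or 2 calls each. A gene with 1 call falls in 1 group by necessity. As 17 of 39 Hox genes had 1 or 2 calls, against 2112 of 21887 genes, these shares are not like for like. The part of sparse calls and of the mostly longer FGR lists was not tested. Without FGR 3 the number of Hox genes with any call was 15 in place of 19, and with FGR 3 and 4 both left out it was 14. Of all genes, 56.5% and 55.6% had a call in these settings.

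Each cluster window held 0 to 7 peaks per library. HoxA (chr6:52135367-52280880) had 2, 0, 1 and 2 peaks in Ctrl 1 to 4 and 4, 2, 5 and 2 in FGR 1 to 4. HoxB (chr11:96174316-96388254) had 1, 1, 2 and 2 and then 4, 2, 5 and 2. In both clusters FGR 1 and FGR 3 were highest and FGR 2 and FGR 4 matched the higher Ctrl libraries. HoxC (chr15:102901131-103056856) had 0, 0, 1 and 1 in Ctrl and 0, 0, 3 and 3 in FGR. HoxD (chr2:74648225-74785142) had 0, 0, 4 and 3 in Ctrl and 3, 4, 7 and 1 in FGR. The groups overlapped in all 4 windows, and Ctrl 1 and 2 had no HoxC or HoxD peak.

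**Figure D2:**
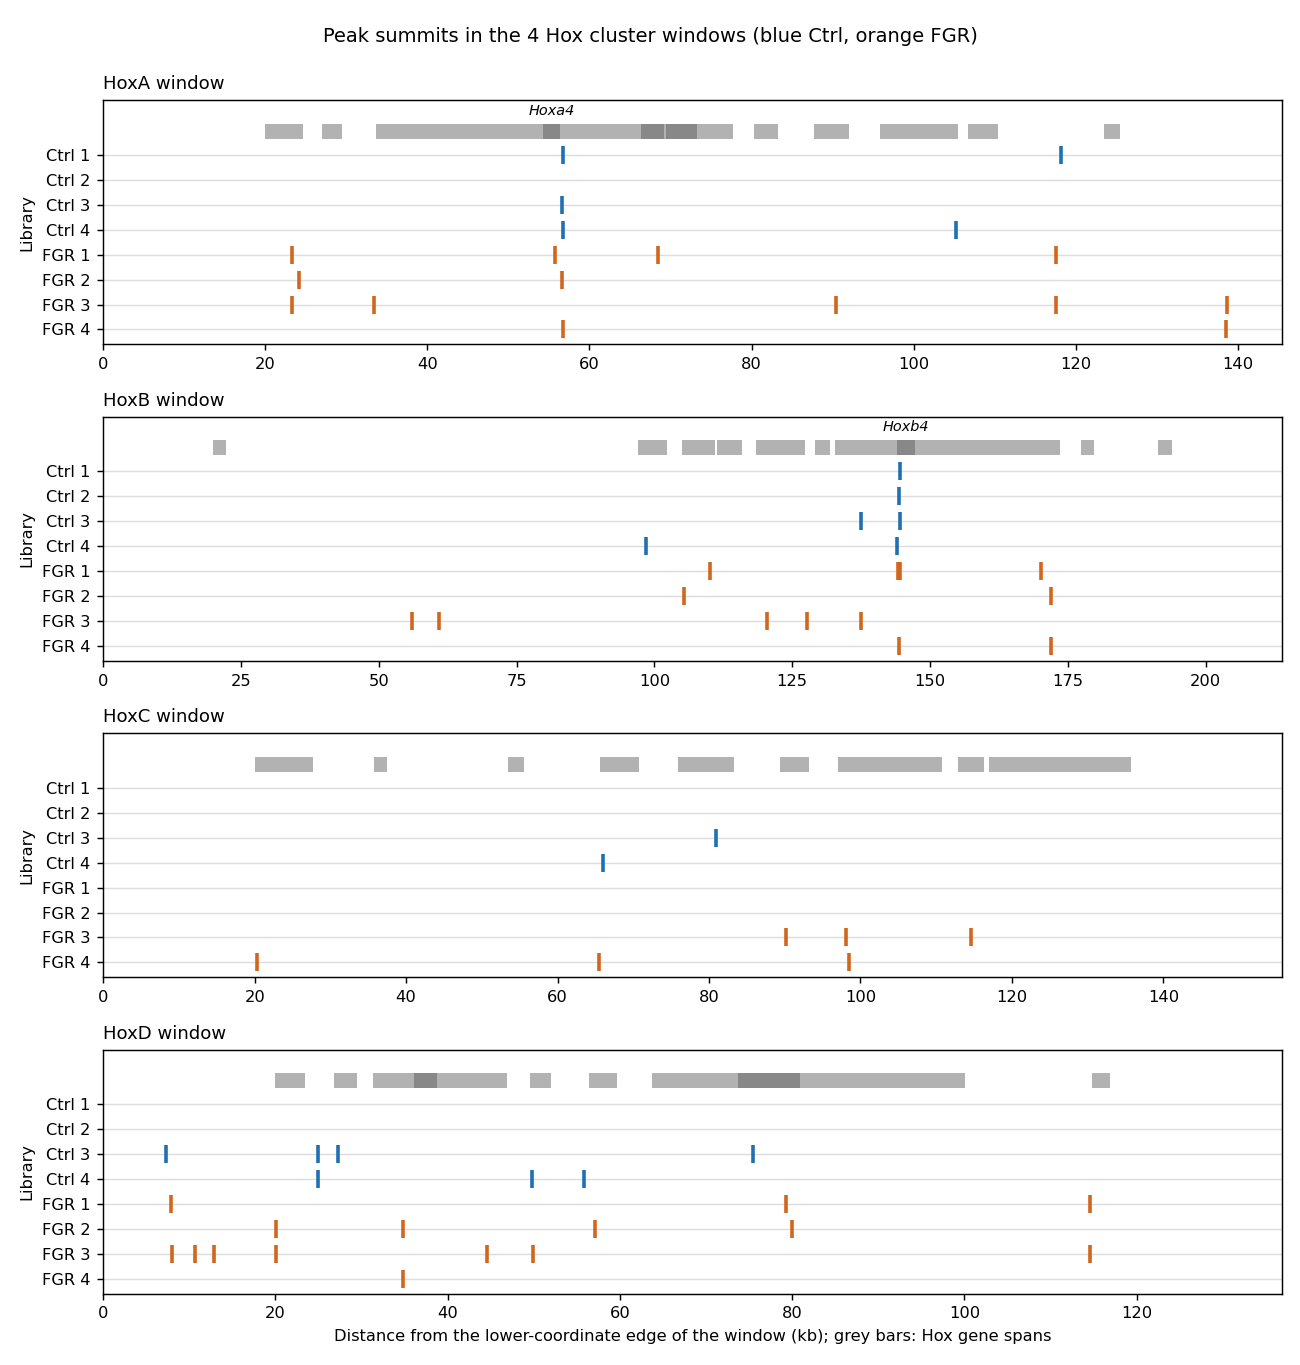
Summits of the 67 peaks in the 4 cluster windows, 1 row per library (blue Ctrl, orange FGR), against distance in kb from the window's lower-coordinate edge, with Hox gene spans as grey bars. Only beside Hoxa4 and Hoxb4 do most libraries have summits close together at this scale. Those at Hoxb4 spread from 120 to 664 bp after its start.

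Per 10000 peaks of its list, the FGR minus Ctrl difference on the log2 scale with 0.5 added to each count was 0.67 (SE 0.39) for HoxA, 0.28 (SE 0.31) for HoxB and 0.78 (SE 0.47) for HoxD. Fitted with limma over all loci, their adjusted p-values were 0.301, 0.581 and 0.319. For HoxC the difference was 0.02, but its mean of 1 peak lies below the minimum of 2 used for the other loci, so that its SE of 1.98 is extrapolated. None of the 4 windows passed, and none had an unadjusted p under 0.05. Of 8037 loci, 1 (0.0124%) was called higher in FGR and 0 were called lower, and the median over all loci was -0.28. With peaks not divided by list length, the median over all loci was 0.31 and the differences were 1.26 for HoxA, 0.86 for HoxB, 0.61 for HoxC and 1.37 for HoxD, with limma adjusted p-values of 0.289 to 0.696. In HoxD the direction turned without Ctrl 1 and 2, to -0.30, and in replicates 3 and 4 only, to -0.49. The mean number of peaks before scaling was still 3.5 in Ctrl against 3.75 and 4 in FGR, in that order. HoxC turned in 7 of 17 alternatives, and reached 0.97 in replicates 3 and 4 only (SE 0.37, limma adjusted p = 0.466).

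No Hox gene locus, the gene with 20 kb on each side, reached a mean of 2 peaks, so that the 39 loci were not among those tested. Without that filter all 39 entered a limma fit over 21887 loci, in which 61 loci (0.279%) were called. None was a Hox locus, and 0 of 39 had an unadjusted p under 0.05, against 13.3% of all loci. The median difference of the Hox loci was -0.01 against -0.40 over all loci. Both medians carry the scaling by list length, which gives a negative value even to a locus without peaks. Hoxb13, with 0 peaks in both groups, stood at -0.59, and Hoxb4, with a mean of 1.25 peaks in both, at -0.80. The medians are therefore no measure of gain or loss. Loci within a cluster share peaks and are not separate measurements.

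Over the 652 kb of the 4 windows together, there were 0.460, 0.153, 1.23 and 1.23 peaks per 100 kb in Ctrl 1 to 4 and 1.69, 1.23, 3.07 and 1.23 in FGR 1 to 4. All protein-coding gene loci had 1.02, 0.703, 1.40 and 1.48 in Ctrl and 1.62, 1.42, 1.76 and 1.60 in FGR. The density in the Hox windows was thus below that of all loci in 6 libraries and above it in FGR 1 and FGR 3. The 500 kb on each side of the windows had 1.03, 0.875, 1.45 and 1.60 in Ctrl and 1.78, 1.35, 1.98 and 1.60 in FGR. Against these neighbours, only FGR 3 had a higher density in the windows.

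**Figure D3:**
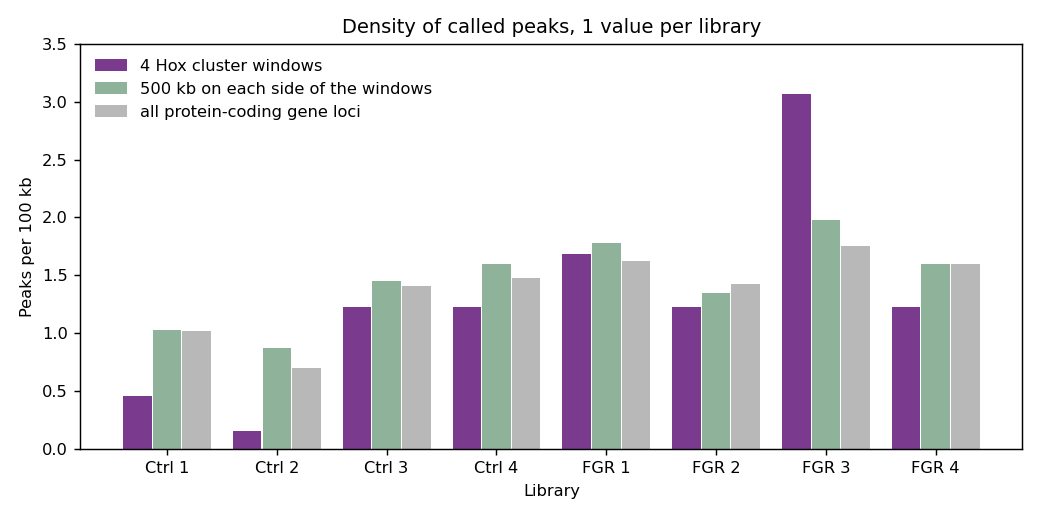
Peaks per 100 kb in each library for the 4 Hox windows, the 500 kb on each side of them and all protein-coding gene loci, 1 bar per library with no error. The Hox bar is the lowest of the 3 in 6 libraries and stands at 3.07 in FGR 3.

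Hox window peaks were weak for their lists. The median within-list percentile of −log10 q was 19.8 over the 67 peaks and the highest was 55.9, while gene-end peaks of all protein-coding genes had a median of 65.5. Only 2 of the 67 (2.99%) lay above the median of their list, 1 in HoxA and 1 in HoxD. The median percentile was 19.7 in HoxA, 17.0 in HoxB, 28.0 in HoxC and 23.6 in HoxD. The median fold was 3.36 against 3.90 over all 180156 peaks, the median width 264 against 386 bp, and the median pileup at the summit 20 extended reads (range 15 to 28) against 29. At a −log10 q of at least 5, 17 of the 67 were left (25.4%, against 68.4% of all peaks). When each list was cut to its strongest 10862 peaks, the length of the shortest, 1 Hox peak was left in all 8 lists together, in Ctrl 2. With these lists 1 Hox gene had a gene-end peak in 1 library, while 43.3% of all protein-coding genes had one in at least 1.

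**Figure D4:**
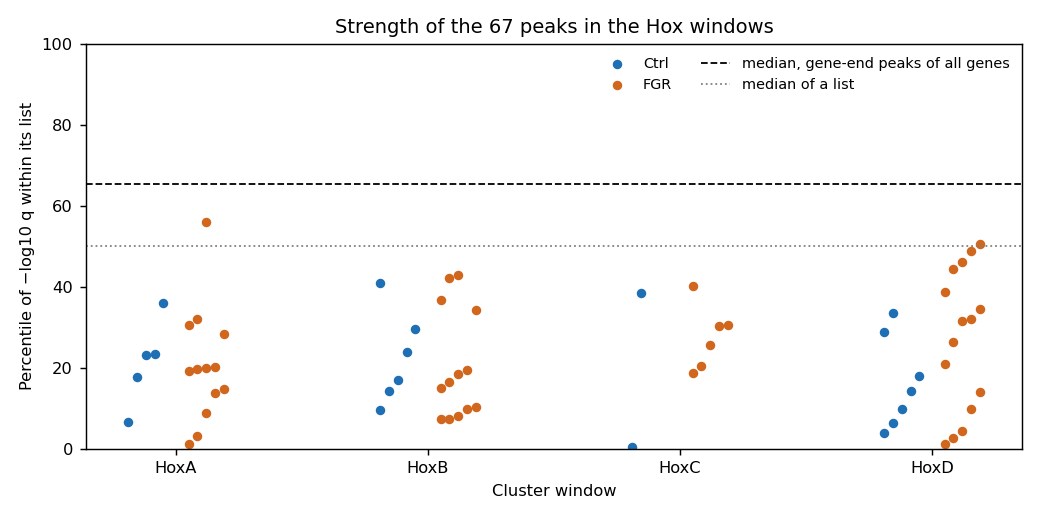
Within-list percentile of −log10 q for each of the 67 Hox window peaks, by cluster (blue Ctrl, orange FGR), with the median of a list (dotted, 50) and of gene-end peaks of all genes (dashed, 65.5). All but 2 points lie below 50 and the highest is 55.9.

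Merged over libraries, the peaks formed 46 regions. Of these, 33 were called in 1 library (71.7%, against 45.9% of 52251 regions), 11 in 2 and 2 in at least 4 (4.35%, against 36.3%). The 2 were those beside Hoxb4 and Hoxa4. None was called in all 8 libraries, against 16.9%, and none differed by at least 3 libraries between groups, against 4.54%. FGR libraries alone had 32 of the 46 (69.6%, against 42.3%), Ctrl libraries alone 10 (21.7%, against 14.9%), and 4 were called in both. These shares are not like for like, because more of the Hox regions were called once. Over all lists too, most regions called once came from FGR libraries. FGR 1 to 4 supplied 19.6%, 11.2%, 23.6% and 16.0% of them, and Ctrl 1 to 4 supplied 1.48%, 0.688%, 11.4% and 16.1%. FGR 3 alone supplied 12 of the 33 regions called once (36.4%), against 23.6% of such regions over all lists. Of the 11 regions in 2 libraries, 4 were those of FGR 1 and 3 (36.4%, against 31.7% of 6218 such regions over all lists) and 2 those of FGR 2 and 4 (18.2%, against 15.2%). Inside a Hox gene span lay 47 of the 67 peaks (70.1%), and 35 (52.2%) lay within 1 kb of a Hox gene end. A further 5 lay in Evx2, a homeobox gene at the edge of HoxD, within the window.

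The promoters of these genes were not poor in CpG. The RefSeq promoter table, with 250 bases before to 50 after a start, held 24 promoters of 22 Hox genes, and 17 genes were not matched. Their median CpG count was 14.5 (range 4 to 45) against 13 in 21239 other promoters. Yet 3 of 24 Hox promoters (12.5%) overlapped a peak in any library and 0 in at least 4 libraries, against 51.9% and 42.2% of the others. The count of 0 does not cover the regions beside Hoxa4 and Hoxb4. Hoxa4 was among the genes not matched, and the Hoxb4 summits lay 120 to 664 bp after the start, outside the promoter window. Among 9945 other promoters with at least the Hox median CpG count, 86.0% overlapped a peak in at least 1 library and 74.3% in at least 4. The 11 Hox promoters with at least 20 CpG each included Hoxa13 with 45, Hoxd13 with 37 and Hoxa5 with 29, and none had a peak in at least 4 libraries. Among other promoters with 20 to 29 CpG, 76.5% had one, and among those with 30 or more, 77.5%.

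**Figure D5:**
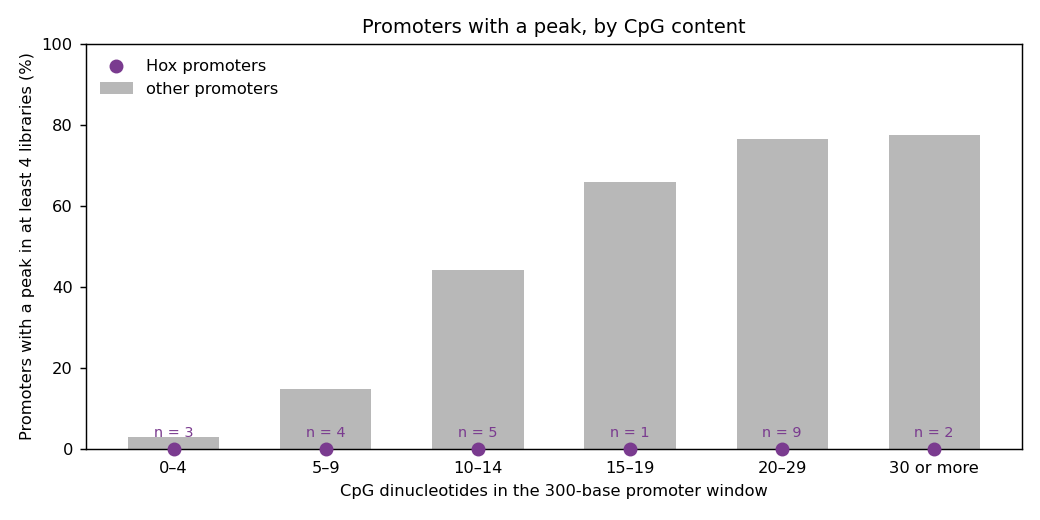
Percent of promoters with a peak in at least 4 libraries against CpG count in the 300-base window, for other promoters (grey bars) and Hox promoters (points, with their number). The bars reach 76.5% at 20 to 29 CpG while every Hox point is at 0. Hoxa4 is not among the promoters, and the Hoxb4 summits lay outside the window.

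Among genes next to the clusters, 14 of 24 had a gene-end peak in every list. Of the 3 nearest protein-coding genes on each side of each cluster, 24 in all, 14 had a gene-end peak in all 8 libraries, 16 in at least 4 and 5 in none, where 31.9%, 45.6% and 42.2% of all protein-coding genes did. Skap2, an adaptor of immune-cell signalling 142818 bp from HoxA, was called in 8 of 8 at a median percentile of 95.3. Cbx3, Hibadh and Tax1bp1 beside HoxA, Atp5g1, Snx11 and Cbx1 beside HoxB, Calcoco1, Atp5g2, Atf7, Cbx5 and Hnrnpa1 beside HoxC, and Lnpk and Hnrnpa3 beside HoxD were also called in 8 of 8. Atp5g3 was called in 4 Ctrl and 2 FGR libraries, Mtx2 in 3 of each and Snx10 in 1 Ctrl library. Ttll6, Calcoco2, Skap1, Smug1 and Gm50595 had no call. Evx1, the homeobox gene nearest to HoxA, was called in 0 Ctrl and 3 FGR libraries at a median percentile of 15.3, and Evx2, nearest to HoxD, in 1 FGR library. The homeobox neighbours thus had few and weak calls like the Hox genes, and 14 of the 22 other neighbours were called throughout.

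Calls at genes for proteins that act on or with Hox clusters differed from list to list, beside 31.9% of all protein-coding genes called in all 8 libraries and 45.6% in at least 4. Of 30 Polycomb genes, 21 had a gene-end peak in all 8 libraries and 26 in at least 4, and of 12 genes for Trithorax proteins and H3K27 demethylases, 7 and 8 did. Of 10 genes for CTCF and cohesin, which fold the clusters, 6 were called in all 8. Hox cofactors of the Pbx, Meis and Pknox families had 4 of 9 in all 8 libraries and 7 in at least 4. Of 14 retinoic acid pathway genes, which switch on anterior Hox genes in the embryo, 0 were called in all 8 and 2 in at least 4. ParaHox and Evx genes had 0 of 8 in at least 4 libraries. Of 56 other developmental transcription factors, 4 were called in at least 4 libraries and 30 in none. In these lists 3 genes differed by at least 3 libraries, all toward FGR, namely Pknox2 with 1 Ctrl and 4 FGR libraries, Evx1 with 0 and 3, and Tbx20 with 1 and 4, where 1.21% of all genes did so. Summed over the libraries, calls were 11.2% of those possible for Hox genes and 10.9% for the 56 developmental factors, against 84.6% for Polycomb genes, 18.8% for retinoic acid genes and 44.7% for all genes.

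The clusters also hold microRNA genes, whose products repress Hox messages among others. The table places 6 of them in the windows, Mir196b in HoxA, Mir196a-1 and Mir10a in HoxB, Mir196a-2 and Mir615 in HoxC and Mir10b in HoxD. The 5′ arms of the miR-10 and miR-196 families are printed because members from different clusters share a seed, bases 2 to 8, shown in capitals.
miR-10a-5p: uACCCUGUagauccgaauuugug
miR-10b-5p: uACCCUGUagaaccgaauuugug
miR-196a-5p: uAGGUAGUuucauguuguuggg
miR-196b-5p: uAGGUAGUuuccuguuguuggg
The first pair shares the seed ACCCUGU and the second AGGUAGU. None of the 6 genes was overlapped by a peak region in any library. The genes are short, the windows hold only 46 regions over 652 kb, and no share over other microRNA genes was taken. The nearest region to miR-10a-5p (chr11:96317186-96317208, plus strand) was the one at Hoxb4, 989 bp away, called in 4 Ctrl and 2 FGR libraries. For miR-10b-5p (chr2:74726074-74726096, plus strand) it lay 1301 bp away and was called in FGR 1 alone.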

How the data were processed

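ATAC-seq was run on 8 libraries, 4 Ctrl and 4 FGR. Per the submitters' processing notes, which state neither settings nor the role of a tool, the build was mm10 and the tools included MACS2 2.2.7.1, a peak caller, the aligner Bowtie2 2.4.5, Trim Galore 0.6.5, DiffBind 3.12.0 and SAMtools 1.3.1. Read shifting and duplicate removal are not described there. The authors deposited 1 peak list per library. Its columns are a whole-number display score deposited by the authors (not used in tests), the authors' fold, a ratio of summit pileup to local background, and the authors' −log10 p and −log10 q values. The smallest deposited −log10 q was 1.31. Summit pileup and background coverage were recovered from the deposited fold and −log10 p as a Poisson tail, with a tolerance of 0.001, for 100% of peaks; read totals were not used here.

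Gene and promoter positions came from RefSeq tables of GRCm38.p6, which give no exons. Regions are peaks merged over libraries where at least 1 bp is shared. Peaks per locus (gene with 20 kb on each side), with 0.5 added and scaled to 10000 peaks per list, were fitted on the log2 scale with limma 3.58.1 (R 4.3.3, trend) over the 8037 loci whose mean reached 2 peaks and the 4 windows; gene-end calls were compared by Fisher's exact test per gene. P-values were adjusted by Benjamini-Hochberg over all features, with a threshold of 0.05. Python 3.11.15 was used elsewhere. On simulated data limma called 0 of 200 loci changed by a fold of 2 and 48 of 200 changed by a fold of 4, with 0 false calls, and pileup was recovered for 3000 of 3000 peaks. Most loci changed by a fold of 4 were thus missed. The simulated loci had a mean of at least 2 peaks, which the HoxC window and the Hox gene loci did not reach. The absence of calls therefore does not show that the groups were alike.

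All 39 genes are counted, and 1 of them is not reported here by name. Named are the other Hox genes with any call, the 3 nearest neighbours on each side, regions in at least 4 libraries, and members of context lists that differ by at least 3 libraries. Marker genes were named to check the tissue label. Members and lists were chosen with earlier results of these data known. The alternatives tried were other pseudocounts, filters, flanks and distances, stricter or equal-length lists, a replicate block, libraries averaged in pairs, and libraries left out.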

Additional observations from a re-analysis of the deposited data

How the results depend on the processing

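None of the 4 cluster windows passed the limma threshold under any alternative that gave a value, and no Hox gene locus was called. The HoxA difference turned to -0.52 at a −log10 q of at least 5, HoxB to -0.40 with equal-length lists, and HoxD to -0.30 without Ctrl replicates 1 and 2 and -0.49 in replicates 3 and 4 only. Except for HoxB, these values carry the scaling by list length. HoxA had a mean of 0.25 peaks in both groups there. HoxD had means of 3.5 peaks in Ctrl against 3.75 and 4 in FGR. The HoxB value rests on the 1 Hox peak left in equal-length lists, in Ctrl 2. HoxC turned to -0.088 with a pseudocount of 1, -0.34 at a −log10 q of at least 5 and -0.36 without Ctrl replicates 1 and 2, and was 0.97 in replicates 3 and 4 only. In these turned settings the HoxC means before scaling were 0.5, 0.25 and 1 peaks in Ctrl against 1.5, 0.5 and 1.5 in FGR. The turned values of HoxA, HoxC and HoxD therefore do not mean fewer peaks in FGR. Leaving out 1 library in turn gave 0.39 to 0.97 for HoxA, 0.11 to 0.44 for HoxB, -0.45 to 0.50 for HoxC and 0.33 to 1.22 for HoxD. HoxA, HoxC and HoxD had no peak in equal-length lists and gave no value there. Averaging replicates 1 with 3 and 2 with 4 within each group leaves the differences unchanged by construction, so that only their spread could move. The limma adjusted p-values were then 0.318, 0.599, 0.997 and 0.272 for HoxA to HoxD. With peaks not divided by list length the windows gave 1.26, 0.86, 0.61 and 1.37 for HoxA to HoxD, beside a median over all loci of 0.31 in place of -0.28. An unadjusted p under 0.05 occurred in 2 alternatives for HoxA, 1 for HoxB, 1 for HoxC and 4 for HoxD, and the smallest limma adjusted p over all of them was 0.175. The count of loci called over the genome, 1 higher and 0 lower, was 26 and 35 without the filter, 8 and 53 with a pseudocount of 1, and 10 and 1 when peaks were not divided by list length.

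The gene-end difference of 7.05 percentage points was 1.92 at a −log10 q of at least 5 and -0.64 with equal-length lists, and lay between 5.34 and 9.62 with 1 library left out. Over all genes it was 3.73 and -3.29 in the first 2 settings, and 1.37 to 5.87 with 1 library left out. The Hoxb4 share of libraries, FGR minus Ctrl, was -0.50 and turned to 0.25 at a −log10 q of at least 5. The count of Hox genes that differ by at least 3 of 4 libraries was 1 in place of 0 with 2 kb on either side of a gene end. Of all protein-coding genes, 1.48% did so in that setting. The 19 Hox genes with any call became 9 at a −log10 q of at least 5, where 49.9% of all protein-coding genes had one. With equal-length lists they became 1, where 43.3% of all genes had one. These alternatives were chosen after seeing the data. The 2 genes called in at least 4 libraries became 0 in both, against 40.0% and 33.8% of all genes. The percent of Hox window peaks above their list's median, 2.99, was 1.79 without FGR 1. The causes were not tested.

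Replicate numbers did not pair the samples. The correlation of same-numbered Ctrl and FGR libraries was -0.02, 0.10, 0.07 and 0.03 for numbers 1 to 4. With a replicate block, 54 loci were called higher and 86 lower. The windows gave 0.67, 0.28, 0.02 and 0.78 for HoxA to HoxD, which the balanced replicate numbers fix in advance. Their limma adjusted p-values were 0.244, 0.573, 0.997 and 0.198. Not every library correlated best with its own number.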
